A study of Homo sapiens with 4 samples.

Results

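The genes described here are 9 regulators and machine parts of pre-mRNA splicing: the hnRNP genes HNRNPA2B1, HNRNPLL, HNRNPU and PTBP1, the nuclear speckle gene SRRM2, the helicase gene DDX17, the U2AF-related factor RBM39, the spliceosomal GTPase gene EFTUD2 and the kinase gene CLK3. They were taken by gene symbol from the 5 deposited splicing tables, where they held 12 of 471 events and were 9 of 353 genes. Their events were 7 retained introns, 4 skipped exons and 1 alternative 5' splice site, and none was an alternative 3' site or a pair of mutually exclusive exons.

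The RNA came from RKO, an established human colorectal cancer line, in 2 genotypes. One was wild type (WT) and the other overexpressed ZCCHC7 (OE), which encodes a zinc-knuckle protein of nuclear RNA surveillance. Each genotype had 1 input and 1 immunoprecipitate (IP) library, 4 in all, without replicates. No label said how the overexpression was made or whether the cells were 1 clone. On the antibody the labels conflicted, with ZCCHC7 named in the sample characteristics, and SRSF1 followed by m6A in the extraction text. ZCCHC7 and SRSF1 had 0 listed events and 0 peaks, so the overexpression was not checked here. The epithelial markers EPCAM, KRT8, KRT18 and KRT19 and 9 markers of other cell types likewise had no event and no peak, so the labelled cell type was not checked either.

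Splicing removes introns from pre-mRNA at a small set of conserved sites, which the spliceosome reads together with helper proteins. SR proteins and hnRNPs bind exons and introns and favour or oppose the use of nearby sites, and kinases of the CLK family phosphorylate SR proteins. Many genes of this machinery are known to splice their own transcripts into forms that stay in the nucleus or are destroyed by nonsense-mediated decay, which degrades RNA with an early stop codon.

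For each event the tables gave inclusion counts, reads that support the longer form, and skipping counts, reads that support the shorter one. Each count cell held 2 values joined by a comma, and no source said which library each came from. They are called the first and the second value and are kept apart. Only the tables' naming as OE against WT tells which sample is which, so sample 1 was taken for OE and sample 2 for WT. The skipping form had a length of 149 bases in every event of the 9 genes. In 456 of 456 events outside mutually exclusive exons the inclusion form was longer than this by exactly the variable segment, so the lengths span the whole segment. A long intron therefore has more positions at which an inclusion read can fall than its splice junction has for a skipping read. Where a level is called length-corrected, each count was divided by the length of its form. Shares carry exact Clopper-Pearson 95% intervals, which cover counting error only and take the reads as independent. The reads carried no molecular identifiers, so copies of 1 molecule could not be told apart and the intervals may be too narrow. Spread between libraries is left out, since each group held 1.

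Depth was low. The 12 events held 133 counts in WT and 55 in OE, which were 3.47% (2.91 to 4.10) and 2.26% (1.71 to 2.93) of all counts in the tables. The median event of these genes had 3 counts in WT and 2 in OE, beside 3 and 3 over all 471 events. The exons of HNRNPA2B1 and SRRM2 held 103 of the 133 WT counts and 19 of the 55 OE counts. By total counts they ranked 6 and 8 among the 471 events, with 70 and 52 counts. The other 10 events ranged from 1 to 8 counts in WT and from 1 to 12 in OE. Only the SRRM2 exon reached the minimum of 10 counts in each genotype that was set for a test, and 11 events did not.

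**Figure D1:**
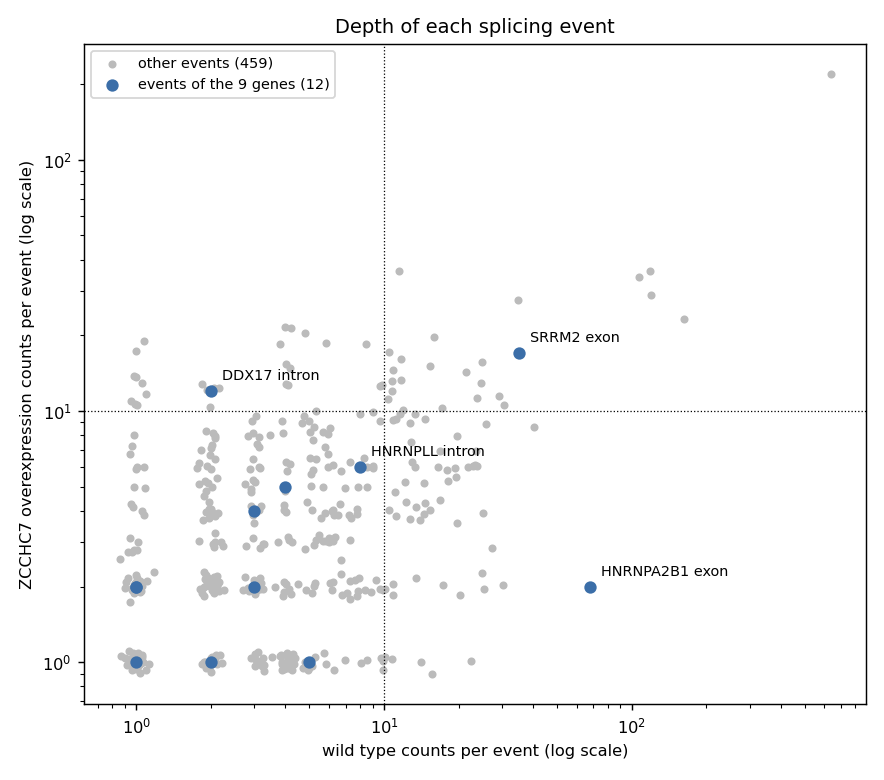
Total inclusion plus skipping counts of each of 471 splicing events in wild type (horizontal axis) and ZCCHC7 overexpression (vertical axis), both on log scales. Blue points are the 12 events of the 9 genes (some coincide), grey points (slightly shifted at random so that they can be told apart) are the other 459, and dotted lines mark 10 counts. The SRRM2 exon is the 1 blue point past both lines, and the HNRNPA2B1 exon lies far to the right with 68 WT and 2 OE counts.

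All 471 listed events had at least 1 count in each genotype, and over both genotypes at least 1 inclusion and 1 skipping count. An event with 1 count in each genotype could therefore only be listed if the genotypes opposed each other, and all 34 such events had a difference of 1 or -1 in the authors' deposited table. In that table the difference reached at least 0.5 in size for 11 of the 12 events of the splicing genes (91.7%) and for 364 of all 471 events (77.3%). All of the 11 and 355 of the 364 lay under the minimum. The authors' deposited table gave p = 1 and FDR = 1 to each of the 12 events, as it did to 459 and 466 of all 471 events.

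Among the hnRNP genes, HNRNPA2B1 had the deepest event. It encodes hnRNP A2 and hnRNP B1, RNA-binding proteins of the nucleus that differ by a short N-terminal insert, and A2 is generally known as the more abundant form. The event was the exon that makes this difference, exon 2 of transcript HNRNPA2B1-201 (chromosome 7, minus strand, 26197831 to 26197866). The exon is 36 bases long and lies wholly in the coding sequence, so it adds 12 codons in frame: the coding sequence has 353 codons in HNRNPA2B1-201 (B1) and 341 in HNRNPA2B1-202 (A2). Its inclusion form was also that of HNRNPA2B1-203, a transcript annotated for nonsense-mediated decay, and of the coding HNRNPA2B1-209.

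In WT the HNRNPA2B1 exon had 56 inclusion and 12 skipping counts, all in the first value. In OE it had 0 inclusion and 2 skipping counts, again in the first value. Inclusion of the exon thus made up 82.4% of the WT counts (71.2 to 90.5), or 79.0% after length correction. These counts do not tell the 3 inclusion transcripts apart, and their library is not named, so they do not measure the abundance of B1 in the cells. In OE the share was 0 of 2 counts, whose interval reaches up to 84.2%. The difference of -82.4 percentage points had a Newcombe 95% interval from -89.6 to -15.7, which leaves out 0 and is approximate with 2 counts in OE. The event stayed under the minimum for a test because of the 2 OE counts. With no minimum it had an exact unadjusted p of 0.0377, the smallest that 2 counts against 68 allow, and an adjusted p of 0.507 over 471 events, of which that setting called 1 (0.212%). Only 65 of the 471 events had counts that allow an unadjusted p under 0.05.

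HNRNPLL, a relative of hnRNP L known for its part in the splicing of CD45 in lymphocytes, had a retained first intron (chromosome 2, minus strand, 38602601 to 38602856, 256 bases). Both forms are annotated as protein coding. In the 3 transcripts with the intron, 230 of its bases are 5' UTR and the last 26 are coding, because translation starts at a codon inside the intron (38602624). In the 3 spliced transcripts translation starts in the exon upstream (38602865). The full coding sequence has 542 codons in HNRNPLL-209, which keeps the intron, and 537 in HNRNPLL-205, which removes it. WT had 4 inclusion and 4 skipping counts in the first value and none in the second. OE had 6 inclusion counts in the second value and none in the first. The added share was 100% in OE (54.1 to 100) and 50.0% in WT (15.7 to 84.3), or 26.9% in WT after length correction. The difference of 50.0 points had a Newcombe interval from 1.68 to 78.5. No value held counts of both genotypes, so no comparison within a value could be made. With a minimum of 5 counts the event entered the stratified exact test, where its counts allow no p but 1. At that minimum the test called 4 of 90 events (4.44%) and none of these genes, and only 28 of the 90 could reach an unadjusted p under 0.05.

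HNRNPU, also called SAF-A, binds nuclear RNA and chromatin. Its event was intron 3 of transcript HNRNPU-226 (chromosome 1, minus strand, 244860475 to 244862460), which separates 2 coding exons and is 1986 bases long. The intron is kept in 2 annotated transcripts, HNRNPU-209 and HNRNPU-217, both of the retained-intron class without a coding sequence, and removed in 9, of which 4 are coding and 3 are annotated for decay. OE had 4 inclusion counts, all in the second value. WT had 1 inclusion count in the first value and 2 skipping counts in the second. Within the second value OE stood at 4 of 4 and WT at 0 of 2, where an exact test cannot go below 0.0667. The added WT share of 33.3% became 3.37% after length correction, and the 4 OE counts correspond to 1.87 per kilobase of the inclusion form.

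PTBP1, the polypyrimidine tract binding protein that represses many exons, had events at neighbouring introns on either side of the coding exon 5 of PTBP1-203 (chromosome 19, plus strand). The first intron (804209 to 804291) has 83 bases and the second (804439 to 804531) has 93, a multiple of 3. The first is kept only in transcripts of the retained-intron class, PTBP1-216 and PTBP1-217. The second is also kept in a coding transcript, PTBP1-221, in which all 93 bases are read as coding sequence. That transcript has 588 codons, against 557 in PTBP1-203. At the first intron OE had 1 inclusion count in the second value and WT had 2 skipping counts in the first. At the second intron OE had 2 inclusion counts in the second value and WT had 1 skipping count in the first. These 6 counts place inclusion at 100% in OE and 0% in WT at both introns, and the Newcombe interval of either difference runs from -3.05 to 100 points.

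SRRM2, a large serine- and arginine-rich protein that scaffolds nuclear speckles, gave the 1 event with a test. The event was exon 2 of SRRM2-201 (chromosome 16, plus strand, 2756334 to 2756606), 273 bases with 31 bases of 5' UTR and 242 of coding sequence. The exon holds the start codon (2756365) of the 2752-codon reading frame of SRRM2-201. In the 3 transcripts that skip it, all annotated as coding, translation starts in the next exon (2757518), and the only complete one, SRRM2-231, has 311 codons. SRRM2-231 also removes most of a long coding exon further downstream that SRRM2-201 keeps. Its length therefore does not show what the skipping of exon 2 alone does to the reading frame. The upstream exon of the event overlaps the antisense gene SRRM2-AS1, and no source said whether the counting used strand.

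The first values of the SRRM2 exon were 14 inclusion and 3 skipping counts in OE, and 28 and 6 in WT. The share was 82.4% in both, with intervals of 56.6 to 96.2 in OE and 65.5 to 93.2 in WT, and the length-corrected level was 62.2% in both. The second values added 1 inclusion count in WT and none in OE. The difference within the first value was 0 percentage points, with a Newcombe 95% interval from -25.2 to 19.6. The exact test stratified by value gave an adjusted p of 1, where the counts could have given an unadjusted p of 7.99e-06. Over all tables this test called 1 of 32 events (3.12%), and none of these genes. On added values Fisher's exact test called 9 of the 32 (28.1%), again without SRRM2, at an adjusted p of 1. An unadjusted p under 0.05 was within reach of only 13 of the 32 in the stratified test and of 19 on added values. Both tests compare these libraries and not the conditions. The authors' deposited table gave the event a difference of -0.189, because it averages the values of a genotype with equal weight and the single WT count of the second value has a level of 1.

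The intron that follows the next SRRM2 exon, intron 3 of SRRM2-201 (2757580 to 2757780, 201 bases), was listed as retained. OE had 1 inclusion count in each value, and WT had 3 skipping counts in the first value. The intron is removed in 7 coding transcripts and kept in 2 of the retained-intron class, SRRM2-223 and SRRM2-229. Both also include exon 2, so an inclusion read of either event can come from them.

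**Figure D2:**
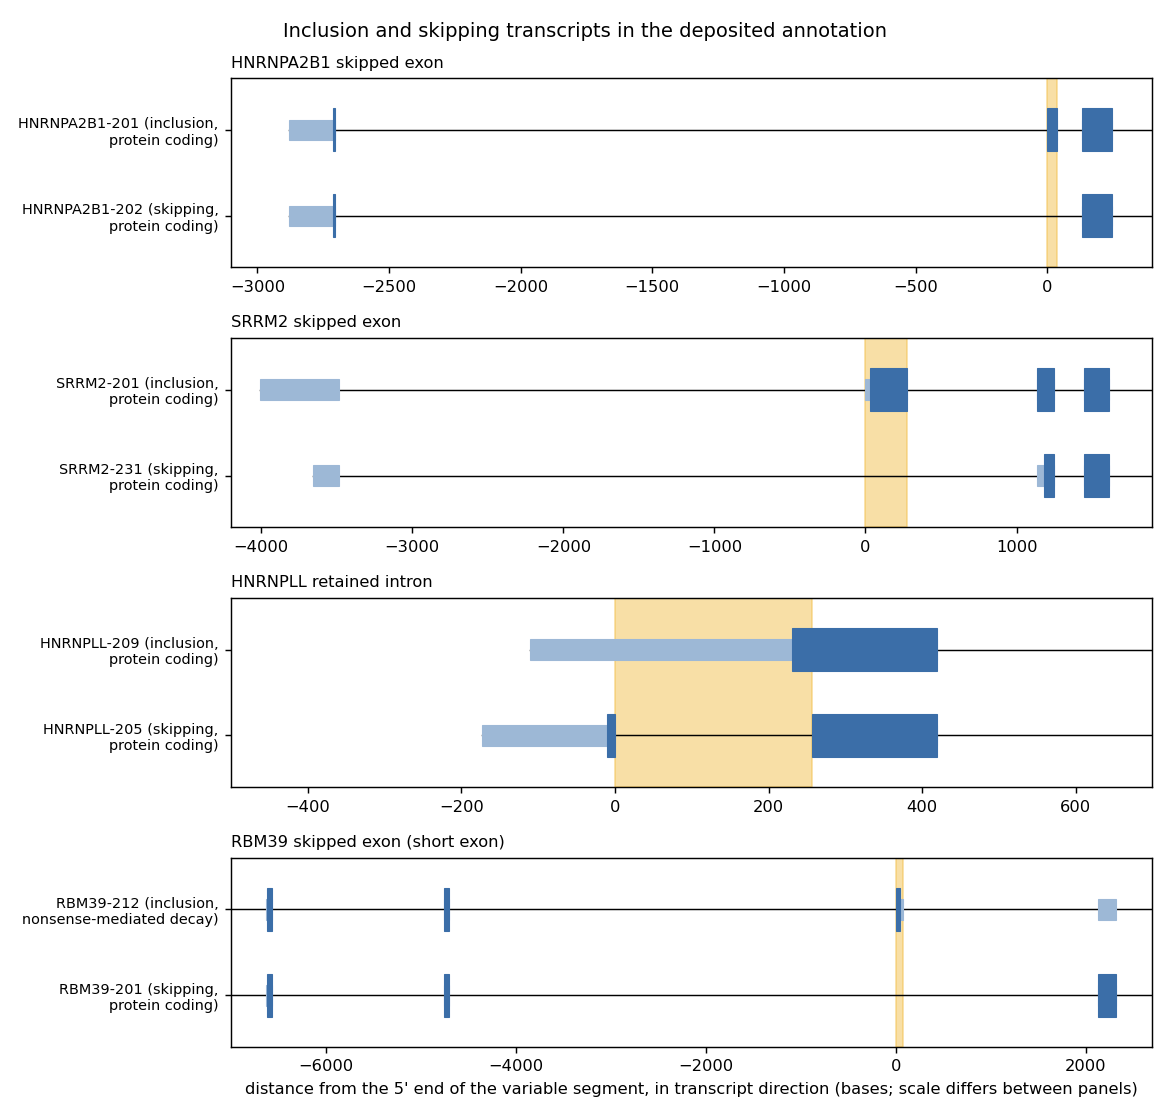
Inclusion (upper) and skipping (lower) transcripts of 4 events in the deposited annotation, drawn 5' to 3' against the distance in bases from the start of the variable segment, which is shaded. Tall dark boxes are coding sequence, low pale boxes are UTR or exons without coding sequence, and lines are introns. The HNRNPA2B1 exon is wholly coding, the SRRM2 exon and the HNRNPLL intron carry a start codon, and in RBM39-212 the coding sequence ends inside the exon.

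RBM39, also known as CAPER alpha, is a U2AF-related splicing factor. Its 2 events were exons with the same 3' end and the same skipping junction, so 1 skipping read can count in both. An inclusion read across the junction at that 3' end can count in both as well. The short exon (chromosome 20, minus strand, 35734186 to 35734257, 72 bases) lies between exons 3 and 4 of the coding transcript RBM39-201. Of the 4 transcripts that include it, none is annotated as coding: RBM39-207 and RBM39-212 are annotated for nonsense-mediated decay and RBM39-215 and RBM39-234 as processed transcripts. In RBM39-212 the first 40 bases of the exon are coding and the stop codon lies inside it (35734215 to 35734217), which leaves 47 codons, beside 530 in RBM39-201. The long exon (35734186 to 35735081, 896 bases) is included in 1 transcript, RBM39-245, of the retained-intron class. The skipping junction of both events is used in 16 transcripts, of which 6 are coding, 6 are annotated for decay and 4 are of the retained-intron class.

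At the short RBM39 exon WT had 1 inclusion count in the first value, and OE had 1 skipping count in the second. At the long exon WT had 1 inclusion count in the first value and 4 in the second, and OE had 1 skipping count in the second. Within the second value of the long exon WT stood at 4 of 4 and OE at 0 of 1, where an exact test cannot go below 0.2. The first-value inclusion count of WT and the skipping count of OE may be the same reads in both events. The single OE count decides the level in OE for both events, and its interval runs from 0 to 97.5%.

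EFTUD2, the GTPase of the U5 small nuclear ribonucleoprotein that helps to activate the spliceosome, had an alternative 5' splice site at exon 2 of EFTUD2-202 (chromosome 17, minus strand). Exon 2 of that transcript carries the start codon (44894519). The downstream site adds 172 bases (44894245 to 44894416), not a multiple of 3, and is used in EFTUD2-222 alone, of the retained-intron class with no coding sequence. The upstream site is used in 6 transcripts, 5 of them coding. OE had 2 inclusion counts and WT had 1 skipping count, all in the first value, so the levels of 100% and 0% rest on 3 counts.

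DDX17, a DEAD-box RNA helicase that works with its paralog DDX5 in splicing and transcription, had the longest segment, intron 11 of DDX17-202 (chromosome 22, minus strand, 38488116 to 38492055, 3940 bases). It is removed in 4 coding transcripts and kept in 1, DDX17-201, of the retained-intron class. OE had 2 skipping counts in the first value and 10 inclusion counts in the second. WT had 2 inclusion counts in the second value and no others. Within the second value both genotypes thus stood at 100%, with 10 and 2 counts. The added OE share of 83.3% (51.6 to 97.9) became 15.4% after length correction, because the 10 counts spread over a form of 4089 bases, 2.45 per kilobase, while the 2 skipping counts fall on 149 bases.

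CLK3, a kinase that phosphorylates SR proteins, had a retained intron 4 of CLK3-202 (chromosome 15, plus strand, 74622217 to 74622493, 277 bases). It is removed in 5 coding transcripts and 2 of the retained-intron class, and kept in CLK3-224 and CLK3-226, both of that class. OE had 3 skipping counts in the first value and 2 inclusion counts in the second. WT had 4 skipping counts in the first value. Within the first value neither genotype had an inclusion count, with 0 of 3 in OE and 0 of 4 in WT. The added share was 40% in OE (5.27 to 85.3) and 0% in WT (0 to 60.2), and the OE share came from the second value alone. After length correction the OE share was 18.9%.

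**Figure D3:**
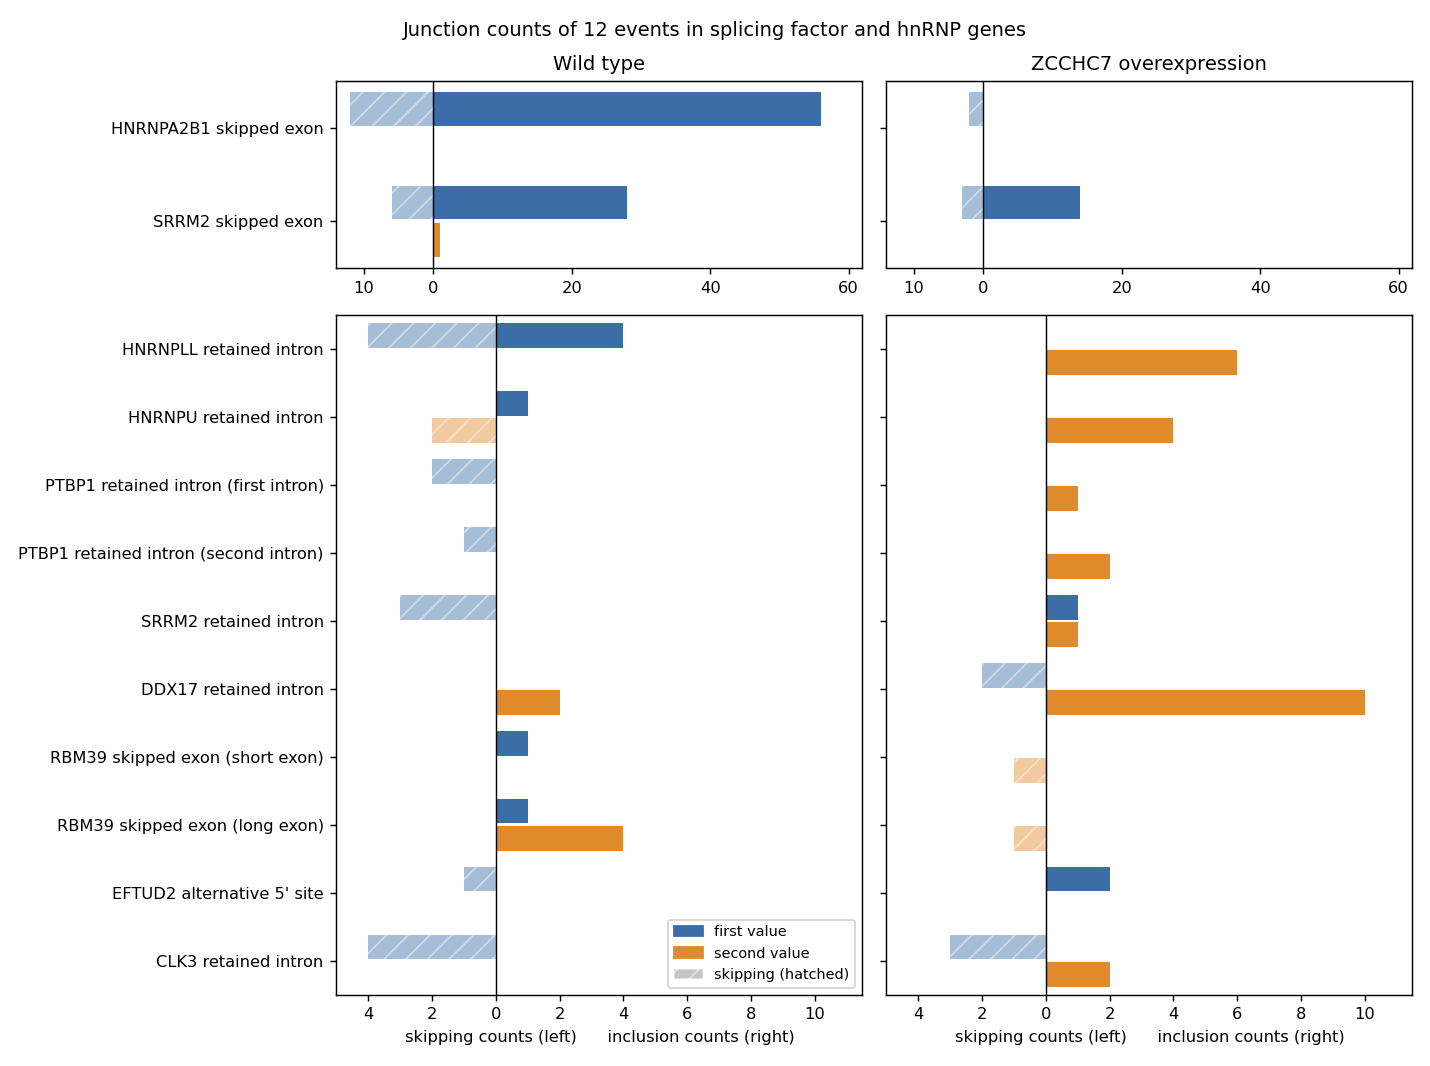
Inclusion counts (bars to the right) and skipping counts (hatched bars to the left) of the 12 events in wild type (left panels) and ZCCHC7 overexpression (right panels), on linear axes that differ between the upper and lower panels. Blue is the first value of a count cell and orange the second. At the retained introns, OE inclusion lies almost wholly in the second value and skipping almost wholly in the first.

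At the retained introns the position of a value went with the form that was counted. Over the 7 introns OE held 1 inclusion and 5 skipping counts in the first value and 26 and 0 in the second. WT held 5 and 14 in the first and 2 and 2 in the second. In 6 of the 7 introns every OE inclusion count lay in the second value, beside 197 of 239 retained introns with an OE inclusion count over all genes (85.7% and 82.4%). WT skipping lay in the first value alone in 5 of 6 introns (83.3%), beside 165 of 235 over all genes (70.2%). The second value of OE had 100% inclusion in these genes (86.8 to 100, 26 counts), and 84.4% (82.0 to 86.5, 1030 counts) in the 257 introns of other genes. The first value of WT had 26.3% (9.15 to 51.2, 19 counts) and 16.2% (14.1 to 18.4, 1176 counts). At skipped exons the direction differed between the genotypes. At the 4 exons of these genes OE held 14 inclusion and 5 skipping counts in the first value and 0 and 2 in the second. Those 2 are the RBM39 skipping counts, which may be 1 read. WT held 86 and 18 in the first value and 5 and 0 in the second. Over all 101 skipped exons inclusion in WT was 58.3% in the first value and 34% in the second, and in OE 64.7% and 73.1%. Over all 34 alternative 5' sites it was 81.0% and 80.4% in OE, and 71.3% and 54% in WT (272 and 50 counts). Over all 471 events, retained introns included, it was 37.7% and 80.3% in OE, and 26.7% and 45.7% in WT. Alternative 3' sites and mutually exclusive exons were not set out by value, so the pattern is not shown to be particular to retained introns. These shares are a description without a test, since counts of 1 gene or library are not independent. What the position stands for was not tested, because no source names the libraries.

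**Figure D4:**
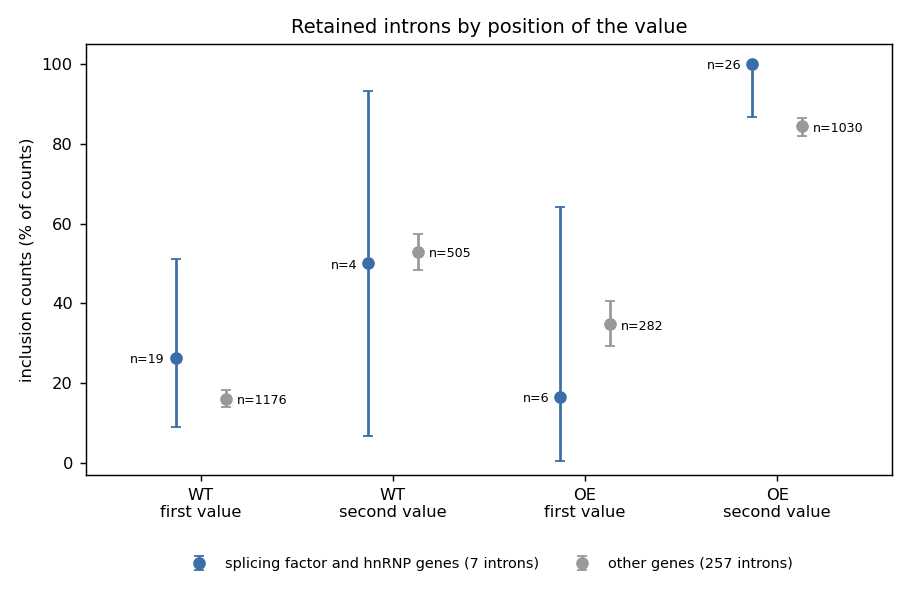
Inclusion counts as a percentage of all counts of retained introns, by genotype and position of the value, for the 7 introns of the splicing factor and hnRNP genes (blue) and the 257 introns of other genes (grey). Bars are exact 95% intervals and n is the number of counts. The share is higher in the second value of OE than in its first value in both sets, and 19 or fewer counts stand behind the blue points other than the 26 of that second value.

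With both values added, inclusion was higher in OE in 7 of the 12 events and lower in 5, beside 365 of 471 over all genes (58.3% and 77.5%). The median difference was 45.0 percentage points in these genes and 57.1 over all events. The mix of classes differed, as skipped exons were 4 of these 12 events and 101 of all 471. Among retained introns alone OE was higher in 6 of 7 (85.7%) and lower in 1. Over all genes it was higher in 214 of 264 retained introns (81.1%) and lower in 49. The median difference at retained introns was 66.7 points in both sets. The 7 higher events were the introns of HNRNPLL, HNRNPU, PTBP1, SRRM2 and CLK3 and the EFTUD2 site. The 5 lower were the HNRNPA2B1 exon, the SRRM2 exon at 82.4% against 82.9%, both RBM39 exons and the DDX17 intron. The RBM39 exons may share reads, so they are not separate observations. Only 5 events had counts of both genotypes in the first value, and there OE was higher in 2, lower in 1 and equal in 2. In the second value 3 events could be set side by side, with 1 higher, 1 lower and 1 equal. The Newcombe interval of the added difference left out 0 at 4 events, the HNRNPA2B1 exon, the HNRNPLL intron, the SRRM2 intron (13.5 to 100) and the long RBM39 exon (-100 to -9.54). Exact tests on the added counts cannot go below 0.1 at the SRRM2 intron and 0.167 at the long RBM39 exon. At the HNRNPLL intron OE counts lay only in the second value and WT counts only in the first. There genotype and position cannot be told apart. The added differences take no account of position, and each listed event showed both forms, so these intervals are a description only. In 6 of the 12 events the added share was 0% or 100% in both genotypes.

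**Figure D5:**
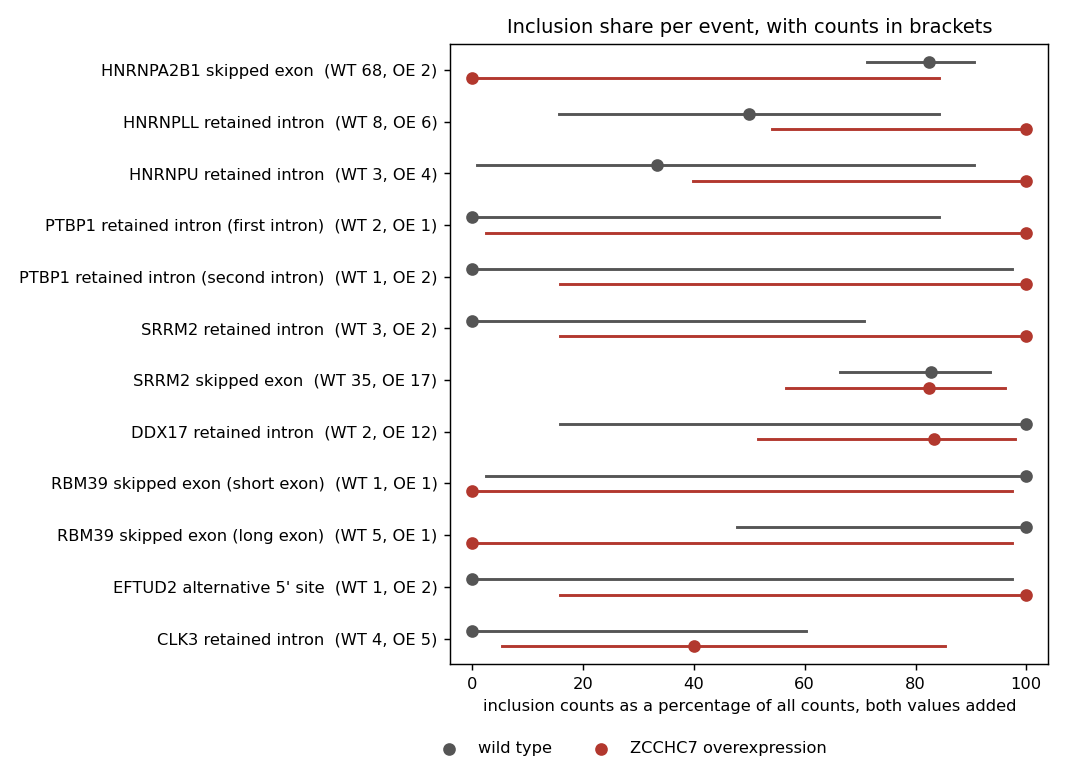
Inclusion counts as a percentage of inclusion plus skipping counts for each event, with both values added, in wild type (grey) and ZCCHC7 overexpression (red). Lines are exact 95% intervals and brackets give the counts. The lines span most of the axis at the events with few counts, and the points lie close together at the SRRM2 exon, at 82.9% in WT and 82.4% in OE.

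The annotated fate of the longer form differed among the genes. An exact transcript match was found for both forms of all 12 events. The longer form was found in a coding transcript for 4 events (the HNRNPA2B1 and SRRM2 exons, the HNRNPLL intron and the second PTBP1 intron), in decay transcripts but no coding one for 1 (the short RBM39 exon) and in the retained-intron class alone for 7. These were 33.3%, 8.33% and 58.3%, beside 37.3%, 10.7% and 45.2% of all 456 events outside mutually exclusive exons. Among the 4 skipped exons 2 had a coding transcript (50%), beside 76 of 101 over all genes (75.2%). Among the 7 retained introns the longer form was of the retained-intron class alone in 5 (71.4%), beside 197 of 264 over all genes (74.6%). The number of annotated transcripts ranged from 9 in HNRNPA2B1 and 12 in HNRNPLL and DDX17 to 45 in RBM39, with a median of 26 beside 13 over the 345 protein-coding genes with an event. Of their 214 transcripts, 37 (17.3%) are annotated for decay and 76 (35.5%) as retained introns, beside 11.8% and 29.4% of the 5294 transcripts of the 345 genes, and RBM39 has 15 and 16 of these.

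Related genes were looked up in 5 lists of 159 genes in all: the hnRNP family, SR proteins with their kinases, the spliceosome with its regulators, RNA helicases and nonsense-mediated decay. The lists are not complete: other splicing genes with listed events, such as LUC7L, SCAF11, SFSWAP and SNU13, are in none of them. They held 23 events in 14 genes, with 1 tested and 0 called, beside 1 called of 32 tested over all genes (3.12%). The 14 include the 9 genes above, which were taken from the listed events. Of the 32 hnRNP genes 5 had an event, of the 25 SR proteins and kinases 2, of the 68 spliceosome genes and regulators 4, of the 21 helicases 3 and of the 13 decay factors 0. The share of all annotated genes with an event is not given here, so these counts are not a result about the lists. The 5 genes beyond those above were PCBP2, the exon junction factors ACIN1 and RBM8A, and the helicases DDX39A and DDX3X, with 11 events. In these 11 events OE had 2 inclusion and 8 skipping counts in the first value and 40 and 0 in the second, and WT had 1 and 35 in the first and 11 and 6 in the second. DDX3X had the same counts in 3 event classes, which may be the same reads.

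No peak lay over any of the 9 genes in either list, over gene spans or exons, among 57 WT and 30 OE peaks called by the authors. None of the 159 genes of the lists had a peak. The WT list rested on 896288 IP and 207641 input tags, and the OE list on 2725742 and 396820. The share of all genes with a peak is not given here, so these absences are not a result about the splicing genes. The smallest summits in the lists had 9.02 IP tags in WT and 29.0 in OE, and lower summits were not listed.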

How the data were processed

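Peaks were called with MACS 2.1.0.20150420, per the file headers, which gave the deposited pileup signal, the fold ratio over background and the −log10 p and q values. FastQC 0.11.5 and HOMER are named in the submitters' processing notes. The aligner, the splicing tool and the genome build are not given in the sources used here. Per the file headers, the deposited tables of splicing events hold counts for both forms, form lengths, p-values, FDR and an inclusion level difference (a score from -1 to 1). All 1152 levels of the authors could be recomputed from counts and lengths to within 0.000493.

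Coordinates are those of the deposited files, 1-based. All 9 gene spans overlapped RefSeq genes of the same symbol and chromosome on GRCh38.p14. The event coordinates printed are those of the variable segment. Transcript forms were matched by exact introns, and retained introns by an exon that spans them. The annotation also lists processed pseudogenes of HNRNPU, PTBP1 and CLK3.

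Events with at least 10 counts in each genotype were tested by an exact two-sided conditional test stratified by value (Python 3.11.15, scipy 1.17.1), with Benjamini-Hochberg adjustment over all tested events and a threshold of 0.05. This takes the values of both genotypes to be in 1 order. The test's code was tested on simulated data with known odds ratios. Alternatives added the values, used each alone, turned the OE order or changed the minimum. The text names all 9 genes and all their events. The genes and lists were chosen with earlier results of these data known.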

Additional observations from a re-analysis of the deposited data

How the results depend on the processing

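Of the events of the 9 genes, none was called under any setting run: 0 of 1 tested with the minimum of 10, 0 of 2 with a minimum of 5 and 0 of 12 with no minimum. Most of these outcomes were fixed by the counts: apart from the SRRM2 exon the smallest exact p that any of the 12 events could reach in the stratified test was 0.0377 before adjustment, it was 1 for HNRNPLL, and it was 0.167 for the SRRM2 exon with the OE order turned, so they say nothing about stability. Under a minimum of 20 and with second values alone none of their events could be tested. Over all genes the stratified exact test called 1 event. Fisher's exact test on added values called 9. The stratified test called 4 with a minimum of 5, 0 of 15 with first values alone (2 at an unadjusted p under 0.05), and 11 with the OE values in the opposite order. The cause was not tested. Higher inclusion in OE in 7 events became 2 with first values alone and 1 with second values alone, since 5 and 3 events could then be compared. Length correction left it at 7, but it divides both genotypes by the same lengths and cannot turn a direction. Of 20 alternative values for single events, 3 left the interval of the added difference: HNRNPU at 100 points with second values and 96.6 after length correction, from 66.7, and DDX17 at -84.6 after length correction, from -16.7. Every event was matched to a transcript, and no gene had a peak, under each alternative. The alternatives were a looser match to transcripts and stricter rules for peaks, so neither outcome could have changed. No paired analysis was possible because the labels give no replicate numbers and each group holds 1 library. Depth limits all 12 results, least at the SRRM2 exon, where both genotypes had more than 10 counts.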
